A study of Mus musculus with 21 samples.

Results

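The genes described here handle zinc in the cell: 4 zinc exporters (Slc30a8, Slc30a1, Slc30a5 and Slc30a7), 3 zinc importers (Slc39a6, Slc39a7 and Slc39a14), the metallothioneins Mt1 and Mt2, and the zinc-sensing transcription factor Mtf1. They were chosen by symbol, each symbol matched 1 Ensembl gene identifier of the count files, and they make up 10 of the 55536 genes counted. The choice was made with earlier results of these data known, so counts of these genes beside the share of all genes are descriptions. All 10 were among the 27229 genes with at least 10 reads over all samples, the genes that entered the tests. RNA was sequenced from pancreatic islets of male mice of the CBA strain. Mice aged 10 weeks were placed for 9 or 10 weeks, on which the sources differ, on a regular diet (RD), a high-fat diet (HFD) or the same high-fat diet with 0.8 mg of O304 per g of diet (HFD-O304), and O304 is a compound that activates AMPK, a kinase that responds to low cellular energy. There were 7 samples in each of these 3 groups. A sample held the RNA of 150 islets that came from 5 mice whose islets had been pooled, so that the p-values below measure the spread between pools. No group received O304 without the high-fat diet, so O304 was compared only on that diet.

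Zinc in islets is unusually abundant, because insulin is packed in the secretory granule of the beta cell as a crystal with zinc. Slc30a8, also called ZnT8, is the transporter that fills the granule with zinc, and variants of its human counterpart are associated with type 2 diabetes. Free zinc in the cytosol is kept low by metallothioneins, small cysteine-rich proteins that bind it, and when it rises Mtf1 binds metal response elements in promoters and switches on Mt1, Mt2 and the plasma membrane exporter Slc30a1. Metallothionein genes are also induced by glucocorticoids and by oxidative stress.

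Mt1 and Mt2 are neighbours on chromosome 8, on the same strand, with 5514 bases between the end of Mt2 (ENSMUSG00000031762, chr8:94172664-94173568) and the start of Mt1 (ENSMUSG00000031765, chr8:94179082-94180327). Slc30a1 (ENSMUSG00000037434) lies at chr1:191906767-191913247. These positions, and those given below for the other genes, are of build GRCm38. The 250 bases before the RefSeq start of these 3 genes, which is not the same base as the start given above, are shown because they are the classical Mtf1 targets of the set, with the core of the metal response element, searched on both strands as TGCACNC or TGCGCNC, in capitals. The sequences are from RefSeq on GRCm38.p6, plus strand, which is the strand of all 3 genes.
Mt1 (chr8:94178839-94179088): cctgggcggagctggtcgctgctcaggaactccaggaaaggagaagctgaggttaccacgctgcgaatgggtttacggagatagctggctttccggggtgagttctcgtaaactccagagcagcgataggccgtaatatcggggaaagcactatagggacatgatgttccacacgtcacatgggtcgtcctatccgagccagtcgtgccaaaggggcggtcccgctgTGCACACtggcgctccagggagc
Mt2 (chr8:94172368-94172617): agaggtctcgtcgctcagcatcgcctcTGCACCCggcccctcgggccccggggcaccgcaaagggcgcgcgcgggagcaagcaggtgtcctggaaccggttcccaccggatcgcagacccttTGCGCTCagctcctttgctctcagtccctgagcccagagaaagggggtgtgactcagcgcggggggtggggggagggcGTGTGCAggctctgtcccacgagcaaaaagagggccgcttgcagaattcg
Slc30a1 (chr1:191906531-191906780): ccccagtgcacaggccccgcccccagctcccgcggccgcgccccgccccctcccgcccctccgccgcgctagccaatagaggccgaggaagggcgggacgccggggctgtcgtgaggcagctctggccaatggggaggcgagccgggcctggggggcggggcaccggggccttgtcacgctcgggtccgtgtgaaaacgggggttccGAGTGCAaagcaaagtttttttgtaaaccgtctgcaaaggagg

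The Mt2 window held 3 positions with the core, at 223 and 128 bases before the RefSeq start on the strand of the gene and at 50 bases on the other strand. In the Mt1 window 1 position was found, 23 bases before the start on the strand of the gene, and in the Slc30a1 window 1 position, 43 bases before the start on the other strand. Of the 32851 promoter windows of this length, 21.4% held at least 1 position and 1.26% held at least 3, so that 1 position is common and 3 are not. When the window was extended 50 bases past the start, Mt1 held 3 positions (1.97% of windows of 300 bases held as many), Mt2 held 4 (0.517%) and Slc30a1 held 2 (7.11%). Of the other genes of the set with a promoter in the RefSeq table, Slc30a5 held 1 position and Slc30a7, Slc39a7 and Mtf1 held 0, and Slc30a8, Slc39a6 and Slc39a14 were not matched, which left 7 of 10 genes searched. These matches describe letters in the windows only.

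The depth, in read pairs on genes, was 31746115 to 41559322 for RD, 27618749 to 44041180 for HFD and 13809266 to 48922569 for HFD-O304 samples, of which HFD-O304 replicate 2 was the shallowest. In all 63 pairs of replicates the difference exceeded sampling noise, so none was a repeated library. Library numbers put replicates 1 to 4 of every group in 1 series and replicates 5 to 7 in another, and these are called library sets below. HFD-O304 replicate 1 carries the HFD diet tag in the labels and was placed by its title. HFD replicate 3 was placed by its diet tag and all other samples by their titles. With either HFD-O304 replicate 1 or HFD replicate 3 left out, the number of zinc genes past the threshold was the same in every comparison.

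Slc30a8 was by far the most abundant of the 10 transcripts. On the TPM scale, which corrects each count for exon length and depth and so lets genes be compared with each other, its level in RD islets was 834 in the lowest sample, 926 in the median sample and 1068 in the highest. The metallothioneins followed, Mt2 with a median TPM of 126 (83.9 to 158) and Mt1 with 94.5 (72.8 to 136), and the ranges of these neighbours overlapped. Slc39a6 at a median TPM of 29.3 (27.7 to 30.4) and Slc30a5 at 29.2 (26.4 to 38.9) could not be separated either. Slc30a7 came next, with a median TPM of 20.2 and a highest value of 24.6, below every value of the former pair. Mtf1 (median TPM 9.25), Slc39a14 (6.81) and Slc39a7 (5.19) were lower, and the ranges of Slc39a14 and Slc39a7 overlapped. Slc30a1 was at the floor of the set, with a median TPM of 0.30 and raw counts of 9 to 48 over all 21 samples, so that its values carry a large counting error. The level of Slc39a7 is understated, because 2084 of its 2584 exon bases are shared with the readthrough gene Gm20427 on the same strand and read pairs there are counted for neither gene. The order of Mt2 and Mt1 in TPM rests on their exon lengths. For Mt1 the annotated exons cover the whole gene, 1246 bases, and for Mt2 588 bases. Before correction for length, counts of Mt2 were 0.543 to 0.691 times those of Mt1 in RD islets.

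**Figure D1:**
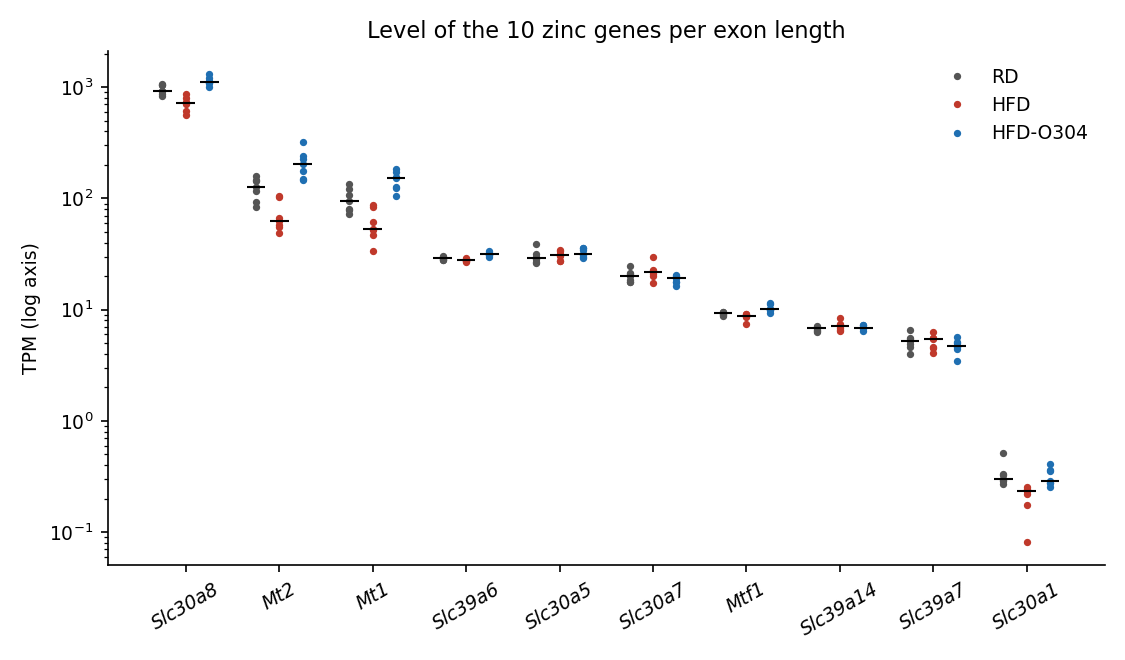
TPM of the 10 zinc genes on a log axis, with 1 point per sample (7 per group) and a bar at the median of each group, for RD, HFD and HFD-O304 islets. Slc30a8 stands above all others in every sample, and Slc30a1 below all others.

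The first comparison, HFD vs RD, asks what the high-fat diet changed. Of the 10 zinc genes only Slc30a8, the granule transporter (ENSMUSG00000022315, chr15:52295553-52335798), passed the threshold of an adjusted p under 0.01 in edgeR's quasi-likelihood test, and it was lower in HFD islets. That is 1 of 10 genes, against 3.54% of all genes tested, and 1.54% of them were lower. In RD islets its normalized count, that is the count divided by a size factor for the depth of the sample, ran from 27818 (lowest) over 33182 (median) to 35082 (highest), and in HFD islets from 21673 over 25152 to 29904. The groups overlapped only in that HFD replicate 7, the highest of its group, lay above the lowest RD sample, replicate 2. The means were 32139 ± 2645 (SD, n = 7) in RD and 25169 ± 2907 in HFD islets, and Slc30a8 fell by 21.9% (log2 fold change −0.36, standard error 0.067, edgeR adjusted p = 0.0012). In whole islets, fewer cells of a type and less RNA per cell cannot be told apart, which holds for every difference given here.

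Both metallothioneins had lower means in HFD than in RD islets without passing the threshold. Mt1 had normalized counts of 1650, 1893 and 2851 (lowest, median and highest) in RD islets and of 776, 1291 and 1939 in HFD islets. The median of the HFD samples lay below every RD sample, while the highest HFD samples, replicates 6 and 7, lay within the RD range. Its log2 fold change was −0.65 (standard error 0.17, edgeR adjusted p = 0.0155). For Mt2 the normalized counts were 897, 1194 and 1569 in RD and 530, 679 and 1096 in HFD islets, with the same HFD samples reaching into the RD range, and the log2 fold change was −0.72 (standard error 0.18, edgeR adjusted p = 0.0126). Without HFD replicate 7 both passed, with adjusted p values of 0.00268 for Mt1 and 0.0025 for Mt2, and without HFD replicate 6 both passed as well (0.00765 and 0.00603). Leaving out RD replicate 4 or HFD-O304 replicate 2, the latter entering only through the shared estimate of spread, brought Mt2 alone past the threshold (0.00894 and 0.00717).

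Slc30a1, the exporter of the plasma membrane, was the gene of the set whose RD and HFD samples did not overlap, although it did not pass the test. Its normalized counts were 23.9, 27.8 and 44.4 (lowest, median and highest) in RD islets and 7.80, 21.8 and 23.6 in HFD islets. All HFD samples were below all RD samples, although the highest HFD and the lowest RD sample nearly touched. Of all genes tested, 0.687% had no overlap in this direction. The log2 fold change was −0.61 (95% interval −1.04 to −0.17, edgeR adjusted p = 0.0825).

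The remaining genes did not pass the threshold in HFD vs RD islets either, although the intervals of Slc30a7 and Slc39a14 exclude 0. The exporters of the secretory pathway, Slc30a5 and Slc30a7, had log2 fold changes of 0.10 (95% interval −0.08 to 0.28, edgeR adjusted p = 0.578) and 0.21 (0.02 to 0.40, adjusted p = 0.193). Among the importers, which move zinc into the cytosol, Slc39a6 stood at 0.02 (95% interval −0.07 to 0.12), Slc39a7 of the endoplasmic reticulum at 0.06 (−0.19 to 0.31) and Slc39a14, which also carries iron, at 0.16 (0.03 to 0.29), with edgeR adjusted p values of 0.855, 0.848 and 0.128. Mtf1, whose targets include both metallothioneins, had a log2 fold change of −0.02 (−0.11 to 0.08, adjusted p = 0.907). Of these intervals only that of Slc30a7 reaches a change of the size seen in Slc30a8. Over all 10 genes the median log2 fold change was 0.0038, next to −0.0044 over all genes tested.

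The comparison of HFD-O304 with HFD islets asks what O304 changed on the high-fat diet, and it shares the HFD samples with the comparison above. Slc30a8, Mt1 and Mt2 were higher and Slc30a7 was lower in HFD-O304 islets, while the other 6 genes did not pass the threshold. The 4 genes of 10 stand against 11.9% of all genes tested, with 5.08% higher and 6.79% lower. In 3 of the 10 genes, Slc30a8, Mt1 and Mt2, all 7 HFD-O304 samples lay above all 7 HFD samples, and 2.56% of all genes tested did so.

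Slc30a8 had normalized counts of 33724 (lowest), 36416 (median) and 39349 (highest) in HFD-O304 islets, so that its lowest HFD-O304 sample lay above the highest HFD sample, 29904. The mean of 36192 ± 2261 (SD, n = 7) was 1.44 times that of HFD islets on the fitted scale (log2 fold change 0.53, standard error 0.067, 95% interval 0.39 to 0.67, edgeR adjusted p = 1.97e-06). The difference passed the threshold within each library set, with log2 fold changes of 0.59 in replicates 1 to 4 and 0.44 in replicates 5 to 7.

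Mt1 rose to normalized counts of 2004, 3025 and 3887 (lowest, median and highest) in HFD-O304 islets, against a highest HFD value of 1939. The fitted difference was 2.23-fold (log2 fold change 1.15, standard error 0.17, edgeR adjusted p = 1.44e-05). Mt2 rose to 1340, 1919 and 3226, against a highest HFD value of 1096, and this was 2.68-fold (log2 fold change 1.42, standard error 0.18, edgeR adjusted p = 2.38e-06). For both genes the highest value of all 21 samples was that of HFD-O304 replicate 2, the shallowest library. Without that library the log2 fold changes were 1.09 for Mt1 and 1.29 for Mt2, and both passed the threshold.

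For the metallothioneins the samples of the 2 library sets lay apart in HFD and in HFD-O304 islets. In HFD islets Mt1 ran from 776 to 1291 normalized counts in replicates 1 to 4 and from 1324 to 1939 in replicates 5 to 7, and in HFD-O304 islets from 3025 to 3887 and from 2004 to 2499, so that within each of these groups the sets did not overlap and lay in opposite order. In RD islets the sets overlapped, at 1650 to 2851 and 1694 to 2480. The log2 fold change of Mt1 in HFD-O304 vs HFD islets was therefore 1.69 in replicates 1 to 4 (edgeR adjusted p = 2.42e-06) and 0.46 in replicates 5 to 7 (adjusted p = 0.0441), and that of Mt2 was 1.99 (adjusted p = 8.93e-07) and 0.63 (adjusted p = 0.0074). The direction was the same in both sets. In the test of the difference between the sets, the interaction was −1.24 (standard error 0.25) for Mt1 and −1.38 (standard error 0.26) for Mt2, with edgeR adjusted p values of 0.107 and 0.0994, and of all genes 0 passed the threshold of 0.01 for this interaction (1314 had an unadjusted p under 0.05). Set against RD islets with only replicates 1 to 4, HFD islets had Mt1 and Mt2 at 0.499 and 0.502 times the RD level, both past the threshold, and with only replicates 5 to 7 at 0.834 and 0.740 times, which were not.

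Slc30a7 (ENSMUSG00000054414, chr3:115938973-116007406), an exporter that loads zinc into the early secretory pathway, was the gene that fell. Its normalized counts were 3406, 4212 and 6025 (lowest, median and highest) in HFD islets and 3077, 3375 and 3621 in HFD-O304 islets. The groups overlapped through HFD replicate 7, the lowest of its group, and HFD replicate 1 stood well above the others. The log2 fold change was −0.39 (standard error 0.093, edgeR adjusted p = 0.0033), and without HFD replicate 1 it was −0.30 and did not pass (adjusted p = 0.0117). It did not pass within replicates 5 to 7 either (log2 fold change −0.23, adjusted p = 0.0884).

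**Figure D2:**
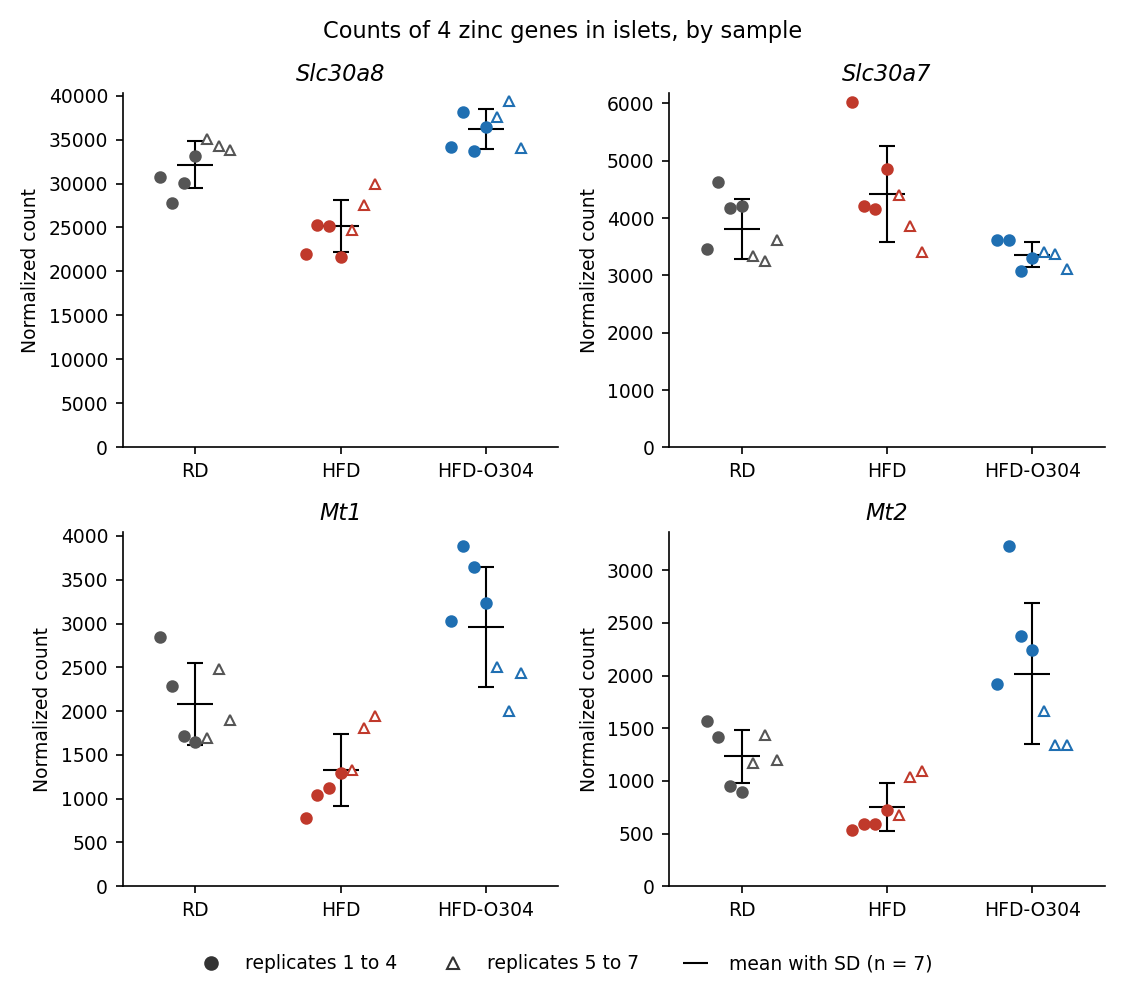
Normalized counts of Slc30a8, Slc30a7, Mt1 and Mt2 in each RD, HFD and HFD-O304 sample, with filled circles for replicates 1 to 4, open triangles for replicates 5 to 7, and the mean with SD (n = 7) in black. Slc30a8, Mt1 and Mt2 show no overlap between HFD and HFD-O304 samples, and in the metallothioneins the circles and triangles lie in opposite order in these 2 groups.

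Of the 6 genes that did not pass, Slc39a14 came closest. Its normalized counts were 1182, 1291 and 1622 (lowest, median and highest) in HFD islets and 1072, 1215 and 1249 in HFD-O304 islets, with a log2 fold change of −0.18 (95% interval −0.32 to −0.05, edgeR adjusted p = 0.0436). Slc39a7 was at −0.29 (−0.53 to −0.04, adjusted p = 0.107) and Slc30a1 at 0.48 (0.04 to 0.92, adjusted p = 0.131), with normalized counts of Slc30a1 between 21.4 and 36.6 in HFD-O304 islets. Mtf1 had normalized counts of 1297, 1394 and 1446 in HFD islets and of 1407, 1490 and 1600 in HFD-O304 islets, a log2 fold change of 0.11 (0.02 to 0.20, adjusted p = 0.099). Slc30a5 and Slc39a6 had intervals of −0.24 to 0.12 and −0.06 to 0.13 on the log2 scale, which leave out a change of the size of that in Slc30a8.

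In the comparison of HFD-O304 with RD islets, which asks how far the treated mice on the high-fat diet stood from the mice on regular diet, none of the 10 genes passed the threshold in edgeR, against 1.31% of all genes tested. DESeq2 also called 0 of the 10 (2.67% of all genes), and 4 had an unadjusted p under 0.05 in edgeR (Slc30a8, Mt1, Mt2 and Mtf1; 14.4% of all genes), all with a higher mean in HFD-O304 islets. The log2 fold change was 0.70 for Mt2 (95% interval 0.33 to 1.07, edgeR adjusted p = 0.0277), 0.50 for Mt1 (0.16 to 0.85, adjusted p = 0.116), 0.17 for Slc30a8 (0.03 to 0.31, adjusted p = 0.205) and 0.10 for Mtf1 (0.00086 to 0.19, adjusted p = 0.342). In every one of the 10 genes the HFD-O304 and RD samples overlapped, while 1.56% of all genes tested had no overlap. At this threshold the tests do not separate the HFD-O304 from the RD level of these genes. The unadjusted intervals of the 4 genes above nevertheless exclude 0, and that of Mt2 reaches up to a log2 difference of 1.07. Among replicates 1 to 4 alone Mt2 passed, with a 95% interval of 0.64 to 1.36 for the log2 fold change (edgeR adjusted p = 0.00658), and within replicates 5 to 7 the log2 fold change was 0.20 (adjusted p = 0.557).

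**Figure D3:**
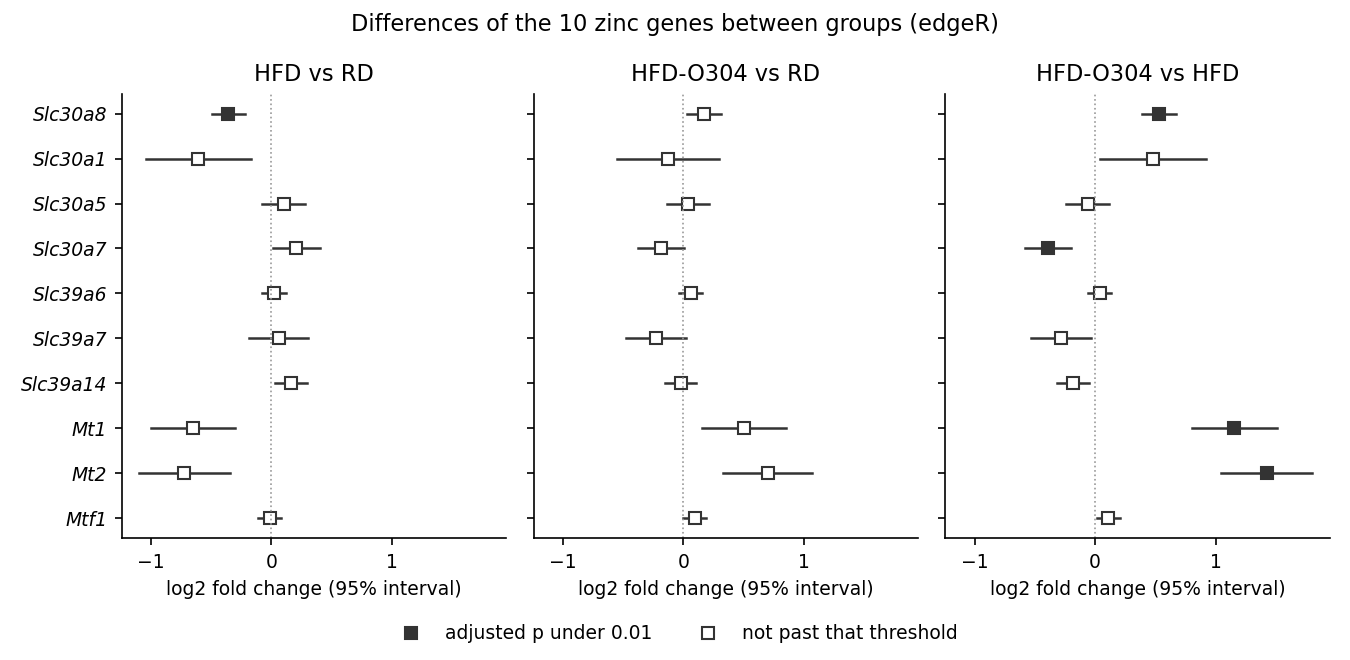
Log2 fold changes of the 10 zinc genes in the 3 comparisons, with 95% intervals from the edgeR fit (n = 7 per group) and filled squares for an adjusted p under 0.01. In the left panel the square of Slc30a8 is filled, in the middle panel none, and in the right panel 4 (Slc30a8, Slc30a7, Mt1 and Mt2).

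**Figure D4:**
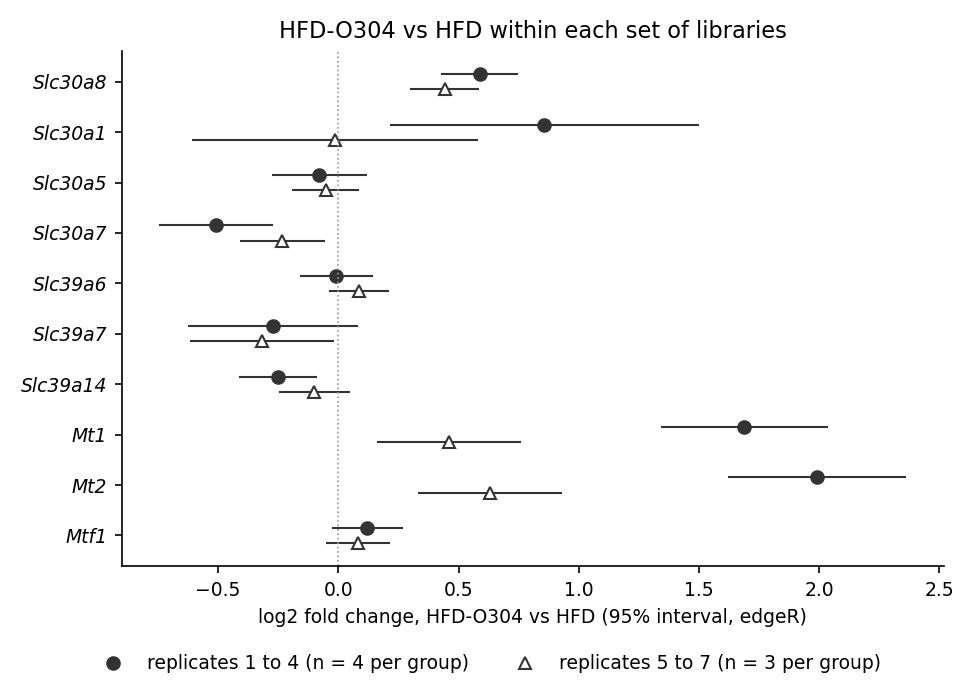
Log2 fold changes of HFD-O304 vs HFD islets with 95% intervals, fitted separately on replicates 1 to 4 (filled circles, n = 4 per group) and replicates 5 to 7 (open triangles, n = 3 per group). The intervals of the 2 sets are apart for Mt1 and Mt2 and overlap for the other 8 genes.

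Mt1 and Mt2 varied together within each diet. Over the 7 samples of a group, the Pearson correlation of their log2(normalized count + 1) values was 0.91, 0.96 and 0.95 in RD, HFD and HFD-O304 islets (exact two-sided permutation tests over pairings, adjusted p = 0.0258, 0.00893 and 0.0149 over 15 relations). Spearman's rho was 0.96 in each group (exact permutation, adjusted p = 0.0139). Without the 2 samples farthest from the median of Mt1, r was 0.85, 0.98 and 0.95. The other 12 relations, of Mt1 with Slc30a1 and Slc39a14, of Slc30a8 with Slc30a5 and of Slc30a5 with Slc39a7 in each group, did not pass an adjusted p of 0.05. These tests treat the samples of both library sets as exchangeable. With the values centred within each set and permuted only within sets, an alternative chosen after seeing the data, r of Mt1 with Mt2 was 0.95, 0.89 and 0.79 in RD, HFD and HFD-O304 islets (exact permutation p = 0.00694, 0.00694 and 0.0556, adjusted p = 0.0521, 0.0521 and 0.208 over 15 relations), where 0.00694 is the smallest p that these 144 permutations can give, and no relation passed. Mt1 and Mt2 are paralogs, and a read pair that fits both equally well is left out of the counts. The ratio of Mt2 to Mt1 normalized counts was 0.543 to 0.691 in RD, 0.513 to 0.682 in HFD and 0.550 to 0.830 in HFD-O304 islets, so that the groups overlapped in the ratio.

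Set against insulin, the cargo it travels with, Slc30a8 showed the same order of groups. As a percentage of the normalized count of Ins2, an insulin gene, that of Slc30a8 was 0.387% to 0.517% in RD, 0.250% to 0.375% in HFD and 0.474% to 0.672% in HFD-O304 islets, with HFD islets below both other groups in every sample. As a percentage of Iapp, which encodes a peptide secreted with insulin, it was 2.23% to 3.26% in RD, 1.01% to 2.43% in HFD and 3.24% to 3.94% in HFD-O304 islets, so that HFD and RD samples overlapped. The denominators ran opposite to Slc30a8, which by itself widens these gaps. Log2 fold changes of Iapp were 0.41 for the diet (edgeR adjusted p = 0.00384) and −0.60 for O304 on it (1.34e-05). Those of Ins2 were 0.09 (0.332, not past the threshold) and −0.23 (0.00149). By its own counts Slc30a8 overlapped between HFD and RD samples, so their full separation holds only for the Ins2 ratio. A list of 14 other genes was drawn up for the insulin granule. It includes G6pc2, which encodes an enzyme subunit of the endoplasmic reticulum and passed in no comparison. Of the 14, 4 were higher and 0 lower in HFD vs RD islets, 0 higher and 8 lower in HFD-O304 vs HFD islets, and 0 higher and 2 lower in HFD-O304 vs RD islets. For all genes tested these shares were 2% higher with 1.54% lower for the diet, 5.08% with 6.79% for O304 on the diet, and 0.404% with 0.903% for O304 on the diet against RD. Median log2 fold changes of the 14 were 0.12, −0.25 and −0.14 in that order, next to −0.0044, 0.027 and 0.0078 over all genes. Scg2, Vgf and Chgb, which encode granins and a granin-like protein of the granule, had log2 fold changes of −0.98, −2.40 and −1.29 in HFD-O304 vs HFD islets (edgeR adjusted p = 1.02e-09, 7.63e-07 and 3.32e-06).

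Further zinc transporters and metallothioneins were taken from a list of 20 genes, of which 18 were tested and Slc39a12 and Mt4 had too few reads. In HFD vs RD islets 1 was higher and 1 lower, in HFD-O304 vs HFD islets 1 was higher and 3 lower, and in HFD-O304 vs RD islets 1 was higher and 0 lower, that is 2, 4 and 1 of 18 next to 3.54%, 11.9% and 1.31% of all genes tested. The gene that was higher under O304 was Slc39a8, an importer of zinc and manganese at the cell surface. Its normalized counts were 157, 309 and 384 (lowest, median and highest) in RD islets, 96.4, 135 and 165 in HFD islets and 371, 507 and 813 in HFD-O304 islets. All HFD-O304 samples lay above all HFD samples, and HFD and RD samples overlapped only in that HFD replicate 7 lay above RD replicate 6. Slc39a8 fell by 1.16 on the log2 scale in HFD vs RD islets (standard error 0.19, edgeR adjusted p = 0.000245), rose by 2.04 in HFD-O304 vs HFD islets (standard error 0.19, adjusted p = 1.12e-08) and was higher by 0.88 in HFD-O304 than in RD islets (standard error 0.17, adjusted p = 0.0036).

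Slc39a11, a further member of the importer family, moved the other way. Its normalized counts were 772, 1043 and 1335 (lowest, median and highest) in RD islets, 1023, 1473 and 2590 in HFD islets and 754, 826 and 968 in HFD-O304 islets. Every HFD sample lay above every HFD-O304 sample, and HFD replicate 1 was the highest of its group. The log2 fold changes were 0.62 in HFD vs RD islets (edgeR adjusted p = 0.00802) and −0.94 in HFD-O304 vs HFD islets (adjusted p = 3.33e-05).

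Mt3, a metallothionein best known from the brain, was lower in HFD-O304 islets, opposite to Mt1 and Mt2. Its normalized counts were 102.6, 187 and 217 (lowest, median and highest) in RD islets, 124, 213 and 391 in HFD islets and 86.2, 113.9 and 134 in HFD-O304 islets, and HFD replicate 7 was the HFD sample that fell within the HFD-O304 range. The lowest HFD-O304 value, in replicate 2, rests on 33 read pairs. The log2 fold change in HFD-O304 vs HFD islets was −1.02 (standard error 0.19, edgeR adjusted p = 0.00026). Slc39a9, the remaining gene called, had normalized counts of 5574, 6265 and 6977 in HFD islets and 4650, 5201 and 5560 in HFD-O304 islets, which did not overlap (log2 fold change −0.27, edgeR adjusted p = 0.000698).

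**Figure D5:**
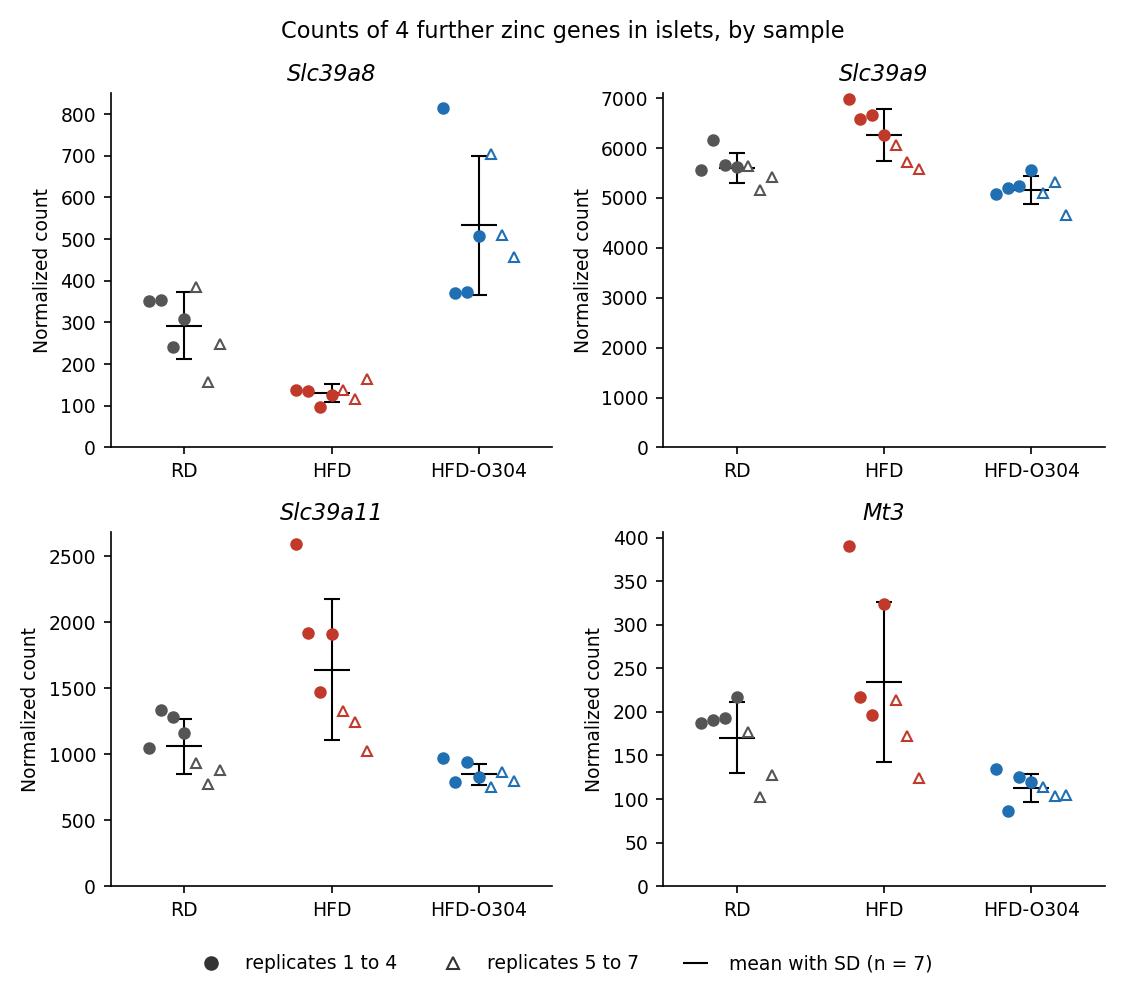
Normalized counts of Slc39a8, Slc39a9, Slc39a11 and Mt3 in each RD, HFD and HFD-O304 sample, with filled circles for replicates 1 to 4, open triangles for replicates 5 to 7 and the mean with SD (n = 7) in black. Slc39a8 is higher in all HFD-O304 than in all HFD samples, and the other 3 genes have lower means in HFD-O304 than in HFD islets.

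Other known inducers of metallothioneins were described through lists of genes tied to their action. Of 12 glucocorticoid-responsive genes, 1 was higher and 1 lower in HFD vs RD islets, 2 were higher and 2 lower in HFD-O304 vs HFD islets, and 2 were higher and 0 lower in HFD-O304 vs RD islets, next to 3.54%, 11.9% and 1.31% of all genes in either direction. Fkbp5, which encodes a chaperone of the glucocorticoid receptor, and Pdk4, a kinase that restrains pyruvate oxidation, were the higher genes in HFD-O304 vs HFD islets (log2 fold changes 0.48 and 1.59, edgeR adjusted p = 5.42e-06 and 2.16e-08), and Cdkn1a, an inhibitor of the cell cycle, was among the lower (−1.06, adjusted p = 3.02e-06). Of 11 oxidative stress response genes, none passed in HFD vs RD islets (4 had an unadjusted p under 0.05 in edgeR, as had 21% of all genes), and 1, the transcription factor Nfe2l2, was higher in HFD-O304 vs HFD (log2 fold change 0.36, edgeR adjusted p = 2.46e-05) and in HFD-O304 vs RD islets (0.25, adjusted p = 0.00871). Nfe2l2 is on the list as a transcription factor of the response. In HFD-O304 vs HFD islets the 10 genes of this list not past the threshold had log2 fold changes of −0.81 to 0.19. The medians of the glucocorticoid list were −0.042, 0.057 and 0.041 and those of the oxidative stress list −0.022, 0.0077 and −0.0038 in HFD vs RD, HFD-O304 vs HFD and HFD-O304 vs RD islets.

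Alpha cell markers passed the threshold in both comparisons in which Slc30a8 did. Gcg, which encodes glucagon, fell by 1.01 on the log2 scale in HFD vs RD islets and was higher in HFD-O304 than in HFD islets (log2 fold change 1.21), and the transcription factor Irx2 moved the same way (−0.88 and 1.12), while Ttr went the opposite way (0.84 and −1.20). The summed normalized counts of the alpha cell marker list were 839089 to 1049510 in RD, 377104 to 694809 in HFD and 851868 to 1141880 in HFD-O304 islets, and the HFD samples did not overlap with either other group. With the log2 of this sum as a covariate, an alternative chosen after seeing the data, the log2 fold changes in HFD-O304 vs HFD islets were 0.45 for Slc30a8 (adjusted p = 0.165 in edgeR), 0.88 for Mt1 (adjusted p = 0.335), 0.74 for Mt2 (adjusted p = 0.462) and −0.53 for Slc30a7 (adjusted p = 0.235), and 0 of the 10 genes passed in any comparison (2, 4 and 4 had an unadjusted p under 0.05 for HFD vs RD, HFD-O304 vs HFD and HFD-O304 vs RD, as had 10.3%, 13.8% and 14% of all genes). Of all genes, 0.0257% passed for HFD vs RD, 0.198% for HFD-O304 vs HFD and 0.944% for HFD-O304 vs RD. The sum adds normalized counts without scaling, so the most abundant of these markers weigh most in it. Because the sum separates HFD from the other groups, the diet and the alpha cell marker level cannot be told apart in these fits.

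Markers of the other cell types of the pancreas were summed in the same way. Beta cell markers summed to 10087300 to 12208500 in RD, 11690000 to 13679700 in HFD and 9300730 to 11021600 in HFD-O304 islets, the insulin genes and Iapp included, and of the 8 markers 1 was higher and 1 lower in HFD vs RD and 2 were higher and 3 lower in HFD-O304 vs HFD islets. Slc2a2, the glucose transporter of the beta cell, was among those that went the way of Slc30a8 (log2 fold change −0.68 for HFD vs RD, 0.74 for HFD-O304 vs HFD, edgeR adjusted p = 0.000723 and 4.95e-05). The marker higher in HFD vs RD islets was Iapp (0.41). The 3 lower in HFD-O304 vs HFD islets were Iapp, Ins2 and Ins1 (−0.60, −0.23 and −0.20). Delta and PP cell markers summed to 180081 to 290226, 114180 to 230307 and 175969 to 309693 in RD, HFD and HFD-O304 islets, with 1 of 3 lower in HFD vs RD and 2 higher in HFD-O304 vs HFD islets. Acinar markers, from exocrine tissue left on the islets, ranged from 8897 to 328483 in RD, 6660 to 255921 in HFD and 5065 to 111026 in HFD-O304 islets, and with their sum as a covariate the same 1, 4 and 0 zinc genes passed for HFD vs RD, HFD-O304 vs HFD and HFD-O304 vs RD (3.58%, 11.4% and 1.21% of all genes). Between HFD-O304 and HFD islets 4 of 6 duct markers were higher under O304, 2 of 5 endothelial markers lower, 1 of 5 macrophage markers higher and 3 of 5 stellate and fibroblast markers lower, and in HFD vs RD islets these lists had 0 markers past the threshold in edgeR (3, 2, 3 and 4 had an unadjusted p under 0.05, next to 21% of all genes). Beside these counts of markers, 2% of all genes tested were higher and 1.54% lower in HFD vs RD islets. In HFD-O304 vs HFD islets 5.08% of all genes were higher and 6.79% lower. The 2 duct markers not past the threshold in that comparison, Krt7 and Spp1, had log2 fold changes of −0.20 and −0.33. Those of the 4 macrophage markers not past it ran from −0.68 (Lyz2) to −0.058 (Adgre1). Median sums in HFD and HFD-O304 islets were 11342 and 10321 for duct and 2808 and 2337 for macrophage markers, with overlapping ranges. Of all markers, Rbpjl of the acinar and Cftr of the duct list were at 0 in at least 1 sample, and the part of these cells in the zinc genes was not tested beyond the 2 covariates.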

How the data were processed

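RNA-seq of 21 islet samples was used. The authors aligned paired-end reads to GRCm38 (Ensembl annotation) with STAR and deposited its raw count of read pairs per gene, without normalization, leaving out pairs that match several places or genes. Of the 3 counts STAR writes per gene, the count on the strand with most pairs was used, which held 28.8 to 36.3 times the other strand. Pairs not assigned to a gene, 18.5% to 24.9%, were left out. Symbols and exon lengths came from GENCODE M21, which matched all 55536 identifiers.

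Genes with at least 10 reads in all were tested with edgeR 4.0.16 (TMM, quasi-likelihood, all groups in 1 fit, no covariates) in R 4.3.3, adjusted by Benjamini-Hochberg over 27229 genes and called at an adjusted p under 0.01. Every adjusted p of a single gene is edgeR's. Normalized counts are counts divided by DESeq2 1.42.0 size factors. The fit was checked on simulated data.

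All 10 members are named, with those of the other zinc genes that were called, up to 3 called genes of the other lists (insulin granule, glucocorticoid-responsive, oxidative stress), and the 5 genes most correlated with Slc30a8 and with Mt1, save genes not reported here. Members and lists were chosen with earlier results of these data known. Other settings were DESeq2, its scaling, other count filters and thresholds, unstranded counts, fits of fewer samples, a block by replicate number, and terms for library set and for acinar and alpha cell markers. Depth was 13809266 to 48922569 pairs on genes per sample, and among the members counting error is largest for Slc30a1. ChIP-seq was not analysed here.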

Additional observations from a re-analysis of the deposited data

Results flagged for a closer look

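In 3 of the 30 groups of 7 samples examined, 10 genes in 3 diets, 1 sample stood far from the others by Dixon's criterion, and chance alone flags about 1 in 20 groups. Slc30a1 had a normalized count of 44.4 in RD replicate 6, next to 29.4 in the second highest RD sample. In HFD replicate 2 the same gene had 7.80, next to 18.02 in the second lowest HFD sample, and this value rests on 9 read pairs. Mtf1 had a normalized count of 1472 in RD replicate 4, next to 1405 in the second highest RD sample.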

How the results depend on the processing

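Of 990 log2 fold changes recomputed under an alternative, 956 kept their direction and their side of the threshold, and of the counts of zinc genes past it, 86 stayed within 1.5 times and 16 did not. The 4 genes called in HFD-O304 vs HFD islets were called by DESeq2 as well.

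The number of the 10 zinc genes past the threshold in HFD vs RD islets, 1, became 3 at an adjusted p under 0.05 (7.89% of all genes), without a filter on low counts (2.68%) and with only replicates 1 to 4 (2.25%), 2 when just the 2 groups compared were fitted (2.44%) or a term for library set was added (5.92%), and 0 with only replicates 5 to 7 (1.25% of all genes, 3 zinc genes at an unadjusted p under 0.05 in edgeR, Slc30a8 with an adjusted p of 0.0111) and with the alpha marker covariate. It ranged from 1 to 3 with each sample left out. In HFD-O304 vs RD islets, 0 became 1 (Mt2) at an adjusted p under 0.05 (2.88% of all genes), without a filter (0.957%) and with only replicates 1 to 4 (0.339%). In HFD-O304 vs HFD islets, 4 became 2 with only replicates 5 to 7 (5.95%) and 0 with the alpha marker covariate. Beyond fewer samples, the causes were not tested.

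Directions that turned belong to log2 fold changes that did not pass either way. In HFD vs RD islets, Slc39a6 was −0.052 with only replicates 5 to 7 and −0.0024 to 0.040 with each sample left out, Slc39a7 −0.10 with only replicates 1 to 4, and Mtf1 0.0078 with only replicates 5 to 7, 0.012 with the alpha marker covariate and −0.026 to 0.0035 with each sample left out. In HFD-O304 vs RD islets, Slc30a1 was 0.18 with only replicates 1 to 4 and Slc39a14 −0.050 to 0.0080 with each sample left out. In HFD-O304 vs HFD islets, Slc30a1 was −0.014 with only replicates 5 to 7 and Slc39a6 −0.0080 with only replicates 1 to 4. Centred by library set, the correlation of Mt1 with Mt2 was 0.95, 0.89 and 0.79 in RD, HFD and HFD-O304 islets and no longer passed. In RD and HFD islets its exact permutation p, 0.00694, was already the smallest that permuting within sets can give. Another 3 correlations, which did not pass either way, turned to −0.20 (Mt1 with Slc30a1, HFD), −0.46 (Mt1 with Slc39a14, HFD-O304) and −0.13 (Slc30a5 with Slc39a7, RD).

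The groups share replicate numbers, and same-numbered samples deviated together in part (mean correlation 0.199, 0.294 and 0.137 in HFD vs RD, HFD-O304 vs RD and HFD-O304 vs HFD). By number, 16 of 42 best matches fell together, more than an even draw among the 7 samples of a group would give. Such a draw takes no account of the library sets, which follow the numbers, so likeness by number was not separated from likeness by set. Single correlations ran from −0.536 to 0.690. Because the likeness did not hold throughout, the numbers were not taken as pairs in the main fit. With the number as a block, 1, 0 and 4 zinc genes passed in HFD vs RD, HFD-O304 vs RD and HFD-O304 vs HFD, the same numbers as without it, and 1577, 543 and 3763 of all genes, against 963, 356 and 3230.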

Other observations

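Over all 21 samples, the genes whose log2(normalized count + 1) values were most like those of Slc30a8, among 13216 genes whose mean normalized count reached 50, were Glul (Pearson r 0.97), Ociad2 (0.97), Dnajc24 (0.97), Rab12 (0.97) and Dazap2 (0.97). Glul, which encodes glutamine synthetase, had mean normalized counts of 12190 (RD), 9555 (HFD) and 15412 (HFD-O304), and Dnajc24 had 1260, 849.5 and 1514 in the same order. Genes among those most like Mt1 were Mt2 (r 0.98), Rcn3 (0.92), Gm2415 (0.91) and Mtss1 (0.91). The 21 samples share diets, library sets and depth, so these values describe likeness across groups as well as among samples, and no test was made.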
